A study of Mus with 5 samples.

Results

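The genes described here are 10 genes of T cell killing: the granzymes Gzma, Gzmb, Gzmc, Gzmk and Gzmm, the pore protein Prf1, the death ligand Fasl, and the killer lectin-like receptors Klrg1, Klrk1 and Klrd1. They are 10 of 21887 protein-coding genes in the RefSeq table used for gene names. A peak was taken as a peak of a gene when the authors' annotation named that gene for it, and 40 of the 27480 peaks in 4 lists met this rule. In chromatin immunoprecipitation sequencing (ChIP-seq), DNA bound by a protein is pulled down with an antibody, and places where sequenced fragments pile up are called as peaks. Here the antibodies were against RARα and BATF. The cells were naive CD8 T cells from the spleen of wild-type mice, activated for 24 h, rested for 24 h in IL-2 at 100 U/ml, after which RA at 50 nM was added for 1 h or left out (control). All groups share this activation and rest. A library made with normal rabbit IgG served as the background of every list, and its labels do not say whether its cells received RA. The sample labels differ in the interleukin they list, although the culture protocol has IL-2 for all.

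RARα is a nuclear receptor for retinoic acid (RA), and BATF is an AP-1 family factor that is induced on T cell activation and acts in effector differentiation. Cytotoxic T lymphocytes (CTLs) kill by releasing granules, in which perforin forms pores in the membrane of the target cell and granzymes, serine proteases, enter to start its death. They also kill by showing Fas ligand, which triggers the receptor Fas on the target. Killer lectin-like receptors tune these responses: KLRG1 is an inhibitory receptor found on short-lived effector cells, NKG2D (Klrk1) is an activating receptor for stress ligands, and CD94 (Klrd1) pairs with NKG2 proteins to bind non-classical MHC class I.

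Each list had been called on 2 pooled ChIP files, so there was 1 list per condition and no spread between replicates. Differences between lists are therefore described without a test. Depth was 22655611 fragments in the RARα control pool and 22475060 in its RA pool, and 23110180 and 16424269 fragments in the corresponding BATF pools, while the IgG library had 11410673. The weakest called peak had 9 fragments at its summit in each RARα list, 13 in the BATF control list and 10 in the BATF RA list. Fragments at the summit are also given per 1000000 fragments of the pool (FPM), with an exact Poisson 95% interval, and fold enrichment is the authors' ratio of ChIP to local IgG. All intervals cover counting error only. The CD8 T cell genes Cd8a, Cd8b1 and Cd3e each had at least 1 BATF peak in both BATF lists, which is a statement on binding and not on expression.

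BATF peaks were assigned to all 10 genes in control cells and to 7 of 10 with RA, where Klrg1, Klrk1 and Klrd1 had none. Over all protein-coding genes, 48.6% had a BATF control peak and 38.3% had a BATF RA peak. The BATF control list had 25 such peaks among 15812, and the BATF RA list 12 among 9899. The shorter RARα lists held fewer such peaks: 2 of 1172 in the control, which named 3 genes (Gzma, Gzmk and Fasl), and 1 of 597 with RA, which named Gzmb and Gzmc. The corresponding shares of all protein-coding genes were 7.18% for the RARα control list and 3.19% for the RARα RA list. Since all 10 genes had a BATF control peak, the 3 with a RARα control peak necessarily had both, a combination held by 5.92% of protein-coding genes. Gzma and Gzmk have it through 1 shared RARα peak.

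**Figure D1:**
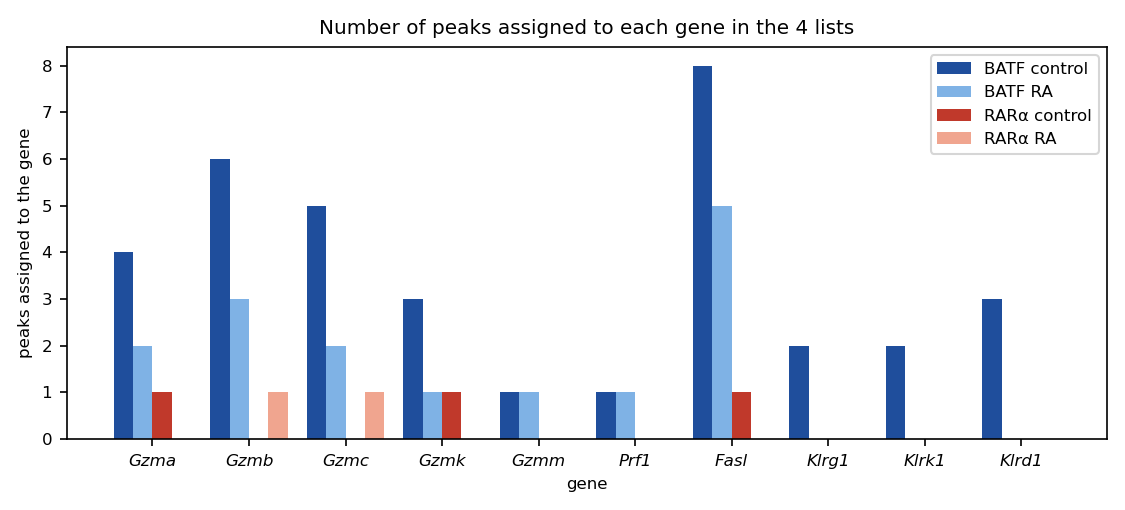
Bars give the number of peaks assigned to each gene (x axis) in each of the 4 lists (y axis, peaks). Fasl had 8 BATF control peaks and 5 with RA, Gzmb had 6 and 3, and the Klrg1, Klrk1 and Klrd1 bars are present for BATF control only.

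The number of BATF control peaks differed among the genes. Fasl had 8, a number reached by 1.27% of protein-coding genes, Gzmb had 6 (2.88%) and Gzmc had 5 (4.62%). Gzma had 4 and Gzmk 3, Klrd1 had 3, Klrg1 and Klrk1 had 2 each, and Gzmm and Prf1 had 1 each, which is the count that 48.6% of genes reach or pass. Neighbouring genes share peaks: Gzma and Gzmk share 3 of their BATF control peaks, Gzmb and Gzmc share 5, and Klrk1 and Klrd1 share 2. Such shared peaks were counted once in the total of 25.

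Most of these sites lay between genes. Of the 25 BATF control peaks, 21 were intergenic (84%, Wilson 95% interval 65.3 to 93.6), 3 were at promoters and 1 was in an intron, whereas 58.7% of all BATF control peaks were at promoters and 18.1% were intergenic. With RA, 9 of the 12 were intergenic, against 16.2% of all BATF RA peaks. The distance between peak and gene was over 10 kb in 33 of 55 peak-to-gene assignments and reached 80031 bp, and 12 of 25 sites in the BATF control list and 6 of 12 in the RA list lay more than 10 kb from the nearest of the 10 genes. More than 1 gene was named for 21 of the 25 BATF control peaks, against 25.5% of all peaks of that list. These 21 were the intergenic peaks, while the promoter and intron peaks named 1 gene each. A peak that names more genes is more likely to name 1 of the 10, so the rule itself favours intergenic peaks. The contrast with all peaks was therefore not read as a trait of these genes. In fold enrichment these sites were close to the list as a whole, with a median of 5.33 against 5.40 in the control and 5.89 against 5.29 with RA.

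**Figure D2:**
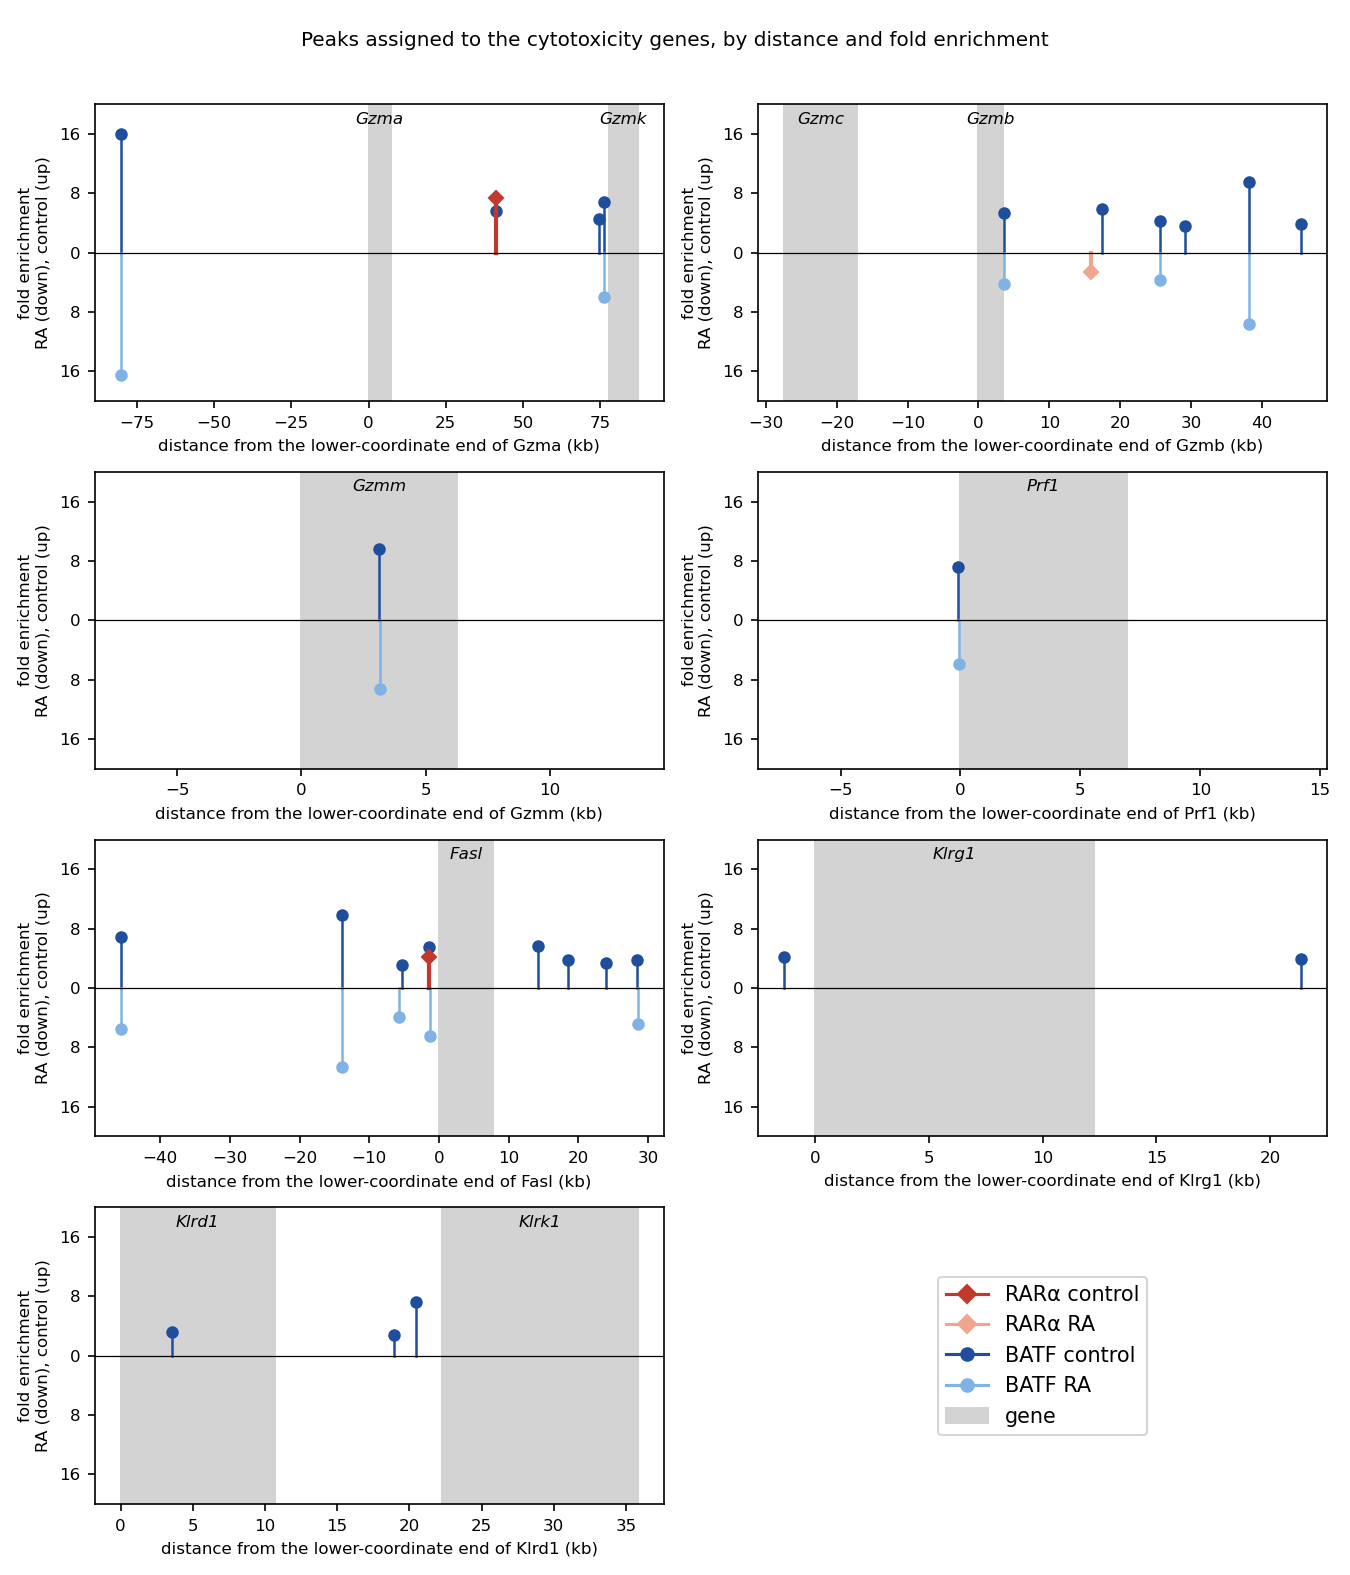
Each panel shows 1 locus, with distance in kb from the lower-coordinate end of the named gene on the x axis and fold enrichment on the y axis, control upward and RA downward. Stems end at the peak summit, circles are BATF, diamonds are RARα and grey bands are the genes; the RARα control peak between Gzma and Gzmk stands at 7.34 over a BATF control peak of 5.60, and the panels of Klrg1, Klrd1 and Klrk1 have no downward stem.

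Granzyme A is a tryptase-like granzyme, and granzyme K is its close relative encoded beside it. On mm10 chromosome 13, Gzma spans 113093824-113100981 and Gzmk spans 113171630-113180965. The strongest BATF peak of all 10 genes was assigned to Gzma, at chr13:113013049-113014044, with 80 fragments in the control (3.46 FPM, 2.74 to 4.31, fold 16.0) and 63 with RA (3.84 FPM, 2.95 to 4.91, fold 16.5). These intervals overlap, and the FPM ratio of RA to control was 1.11 (0.784 to 1.56). The peak is 79780 bp from Gzma, and the nearest protein-coding gene is Mcidas at 12655 bp, so its place among the Gzma peaks rests on the annotation. Nearer to Gzmk, at 1167 bp, chr13:113169915-113170463 had 26 fragments in the control (fold 6.88) and 17 with RA (fold 5.95). A weaker control peak 3037 bp from Gzmk (19 fragments, fold 4.54) was not overlapped by an RA peak, though the RA peak just named lay 1430 bp from it.

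Between the pair of genes both factors were called at the same place in control cells, and neither with RA. The RARα control peak at chr13:113134840-113135177 had 51 fragments (2.25 FPM, 1.68 to 2.96) and a fold of 7.34, the rank of 41 among 1172 RARα control peaks by fold. The BATF control peak at chr13:113134921-113135193 had 50 fragments (2.16 FPM, 1.61 to 2.85) and a fold of 5.60, and its summit lay 92 bp from the RARα summit. The site is 33859 bp from Gzma and 36453 bp from Gzmk, with Cdc20b, the nearest protein-coding gene, at 13821 bp, and the annotation also named Gpx8, Esm1 and the Mir449a, Mir449b and Mir449c genes for it.

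At the IgG level of this site, 15 fragments would have passed the cutoff in the RARα RA pool, where the control level would give 50.6 (37.7 to 66.5). For BATF, 19 fragments would have passed in the RA pool, where the control level would give 35.5 (26.4 to 46.8). The nearest BATF RA peak was 34830 bp away. A level equal to that of the control would thus be expected to pass the cutoff for either factor, by this count of fragments. The count allows for depth and not for a pull-down that differs over a whole list. IgG coverage at the BATF summit was 2.80 times the genome background. Of the 44 RARα control peaks with a fold of at least 7, 26 (59.1%, 44.4 to 72.3) had a RARα RA peak within 5 kb. Where peaks of both factors overlapped in the control, neither factor was called within 5 kb with RA at 83 of 626 sites (13.3%).

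Granzyme B cuts after aspartate and activates caspases, and granzyme C belongs to the same gene cluster. On mm10 chromosome 14, Gzmc spans 56231397-56241647 and Gzmb spans 56258836-56262334. The Gzmb promoter carried a BATF peak in both conditions: chr14:56262270-56262734 had 53 fragments in the control (2.29 FPM, 1.72 to 3.00, fold 5.33), and chr14:56262034-56262454 had 31 with RA (1.89 FPM, 1.28 to 2.68, fold 4.28). The FPM ratio was 0.823 (0.511 to 1.31), an interval that holds 1. IgG coverage at this promoter was 3.15 times the background. Gzmc had no BATF peak within 10 kb, and its 5 control peaks were those it shares with Gzmb, between 34025 and 62516 bp away.

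Those 5 shared peaks all lay on the Gzmb side, 13338 to 41829 bp beyond Gzmb, and the annotation named Gzmf and Atp12a for them as well. The strongest, at chr14:56296223-56297609, had 47 fragments in the control (fold 9.52) and 35 with RA (fold 9.56), an FPM ratio of 1.05 (0.657 to 1.66). At chr14:56284167-56284671 the control had 42 fragments (fold 4.25) and RA had 29 (fold 3.66). These sites were thus called at like levels in both conditions.

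At chr14:56275672-56276785 BATF had 47 fragments in the control (2.03 FPM, 1.49 to 2.70, fold 5.93), and no RA peak lay within 7549 bp. Here 17 fragments would have passed with RA and 33.4 (24.5 to 44.4) correspond to the control level. The weakest of the shared peaks, chr14:56304163-56304404 with 14 fragments, needed 11 with RA where the control level gives 9.95, so its absence was not readable at that depth. The remaining one, chr14:56287910-56288260, had 21 fragments and no overlapping RA peak.

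The sole RARα RA peak of the 10 genes was also placed here, at chr14:56274637-56274916, 12303 bp from Gzmb. It held 12 fragments (0.534 FPM, 0.276 to 0.933) at a fold of 2.63, lay in an L1MC1 LINE repeat, and was 756 bp from the nearest BATF control peak. The RARα control pool would have needed 11 fragments for a call where 12.1 (6.25 to 21.1) correspond to the RA level, so the RA level could have gone uncalled in the control, and a difference between conditions was not detectable here.

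Granzyme M, a metase-type granzyme, and perforin had 1 BATF site each, both within the gene or at its start and both called in each condition. In Gzmm (chr10:79689020-79695261), the peak chr10:79691862-79692328 lay in intron 1 as annotated. It had 37 fragments in the control (1.60 FPM, 1.13 to 2.21, fold 9.68) and 27 with RA (1.64 FPM, 1.08 to 2.39, fold 9.26). At the Prf1 promoter, chr10:61296909-61297939 had 36 fragments in the control (1.56 FPM, 1.09 to 2.16, fold 7.20) and chr10:61297325-61297775 had 30 with RA (1.83 FPM, 1.23 to 2.61, fold 5.83). For Prf1 the fold was lower with RA while the FPM was higher, and the FPM ratio of 1.17 had an interval of 0.698 to 1.96. A further BATF control peak 7056 bp from Gzmm, with a fold of 3.46, was assigned to the Cdc34 promoter and not to Gzmm.

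Fasl (chr1:161780691-161788495) had the most BATF peaks, 8 in the control with 26 to 69 fragments and folds of 3.16 to 9.88, and 5 with RA with folds of 3.85 to 10.6. Each RA peak overlapped a control peak. The strongest, chr1:161765996-161767525, lay 13166 bp from Fasl and had 69 fragments in the control (2.99 FPM, 2.32 to 3.78) and 63 with RA (3.84 FPM, 2.95 to 4.91). Its FPM ratio was 1.28 (0.898 to 1.83), so the intervals do not separate the conditions. On the other side of the gene, the control peak 6233 bp away, chr1:161794728-161795033, had 27 fragments (fold 5.72) and no RA peak within 14155 bp. It needed 12 fragments with RA where 19.2 (12.6 to 27.9) match the control level. The annotation named Suco beside Fasl for all 8.

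The RARα control peak of Fasl, chr1:161779163-161779402, lay 1289 bp outside the gene and was the sole RARα peak within 10 kb of any of the 10 genes. It had 24 fragments (1.06 FPM, 0.679 to 1.58) and a fold of 4.19. It sat inside the BATF control peak chr1:161778746-161779572 (38 fragments, fold 5.50), with summits 25 bp apart. With RA the BATF peak was still called there, at chr1:161779198-161779508 (22 fragments, fold 6.48), and the RARα peak was not. The RARα RA pool needed 13 fragments where 23.8 (15.3 to 35.4) match the control level. That level allows for depth only. At the Srgn and Lamp1 sites described below, called in both RARα lists, fragments were 49 in the control and 28 with RA, and 152 and 58. Whether the pull-down was weaker over the whole RA list was not tested. BATF alone remained within 5 kb with RA at 478 of the 626 sites where RARα and BATF control peaks overlapped (76.4%, 72.9 to 79.5), so the pattern at Fasl is the common one in these lists.

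The lectin-like receptor genes lie on chromosome 6, Klrg1 at 122270596-122282833, Klrd1 at 129588092-129598775 and Klrk1 at 129610323-129623903. They had 5 BATF control peaks together, with 16 to 34 fragments and folds from 2.84 to 7.29, and no RA peak. The strongest was chr6:129608340-129609021, 1302 bp from Klrk1, with 34 fragments (1.47 FPM, 1.02 to 2.06) at an IgG level of 1.31 times the background. With RA 12 fragments would have passed and 24.2 (16.7 to 33.8) match the control level, so a call would be expected at a site of equal strength.

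The other 4 receptor peaks were weak. The Klrd1 promoter peak (chr6:129591605-129591997, 22 fragments, fold 3.25) and the second peak between Klrd1 and Klrk1 (chr6:129606726-129607548, 22 fragments, fold 2.84) needed more fragments with RA, 16 and 17, than the 15.6 that match the control level. Of the Klrg1 peaks, the one 1288 bp from the gene had 16 fragments (fold 4.20) and the one 9091 bp away had 19 (fold 3.95). They needed 11 and 13 fragments with RA where 11.4 (6.50 to 18.5) and 13.5 (8.13 to 21.1) match the control level. At these 4 sites a difference between conditions was not detectable at this depth.

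The nearest BATF RA peaks to these receptor genes were annotated to their neighbours. A peak at the M6pr promoter with a fold of 4.75 lay 25958 bp from Klrg1, and a peak at the Klrc3 promoter with a fold of 5.67 lay 19231 bp from Klrk1 and 44359 bp from Klrd1. The count of genes with a BATF RA peak therefore depends on the assignment. It is 7 of 10 by the annotation, 5 of 10 within 10 kb of the gene and 10 of 10 within 50 kb. For BATF control peaks it is 10 of 10 by the annotation and 8 of 10 within 10 kb, where Gzma and Gzmc had none. The share of all protein-coding genes with a peak within 10 kb or 50 kb was not computed. The counts by distance thus have no background to be read against. In the control, a peak 4827 bp from Klrd1 (fold 2.77) was assigned to an exon of Klre1.

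Across the 10 genes, 15 of 25 BATF control peaks had a BATF RA peak within 5 kb, the distance used by the study for a shared peak (60%, Wilson 95% interval 40.7 to 76.6). The share over all BATF control peaks was 69.9%, which lies inside that interval. Counting only peaks that overlap, 12 of 25 (48%) were shared against 54.4% of all. In the other direction all 12 BATF RA peaks had a control peak within 5 kb, against 96.3% of all BATF RA peaks. By gene group the control sites also called within 5 kb with RA were 9 of 12 for granzymes and perforin, 6 of 8 for Fasl and 0 of 5 for the receptors. These groups were not tested against each other. Of 11 other lectin-like receptor or adaptor genes, from the wider list below, 10 had a BATF control peak and 8 a BATF RA peak. These genes share sites with the receptors and with each other. The control peak at chr6:129608340-129609021 was also assigned to Klrc1, Klrc2, Klrc3, Klre1 and Klri1. The RA peak at chr6:129747269-129747929 was assigned to Klrc2, Klri1 and Klri2. Whether the receptor result extends to the gene class was not tested.

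At the 15 paired sites the BATF fold was lower with RA in 6, against 66.8% of all 11048 pairs. The median ratio of RA to control fold was 1.01, with a range of 0.800 to 1.47, and over all pairs it was 0.869. Of the FPM ratios, none had an interval wholly below 1, against 7.26% of all pairs. An interval wholly above 1 was found in 629 of all 11048 pairs and in 1 pair here, chr14:56287910-56288260 (ratio 1.94, 1.07 to 3.58). Its RA peak was 3303 bp away. This pair and those with gaps of 1430 bp (Gzma and Gzmk) and 4098 bp (Fasl) do not overlap and so compare different sites, and all 3 had a fold ratio above 1. The other 12 pairs overlapped, with the fold lower with RA in 6 and higher in 6, a median ratio of 0.98 and a range of 0.800 to 1.29. Over all 8605 overlapping pairs the median was 0.827. The 15 pairs rest on 12 RA peaks, since 3 RA peaks served 2 control peaks each.

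**Figure D3:**
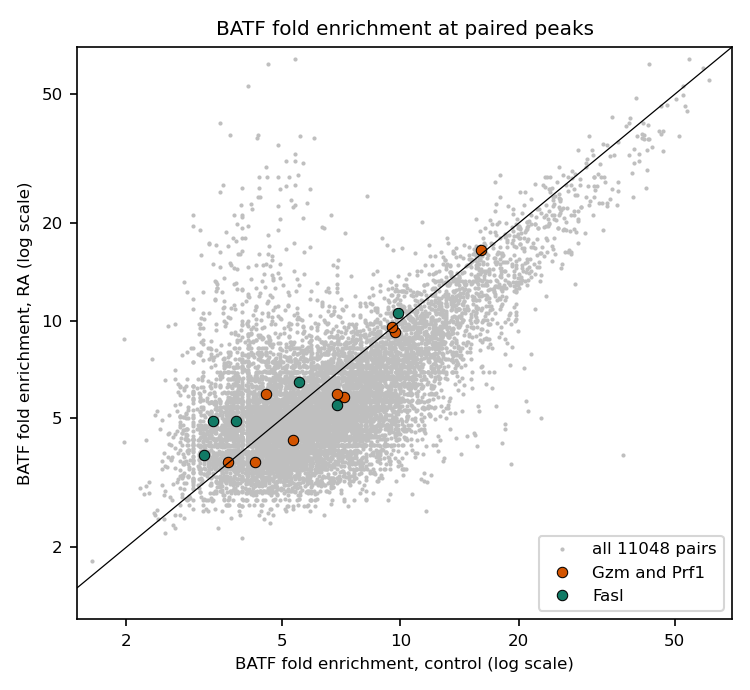
Each point is a BATF control peak with its nearest RA peak within 5 kb, with control fold on the x axis and RA fold on the y axis, both on log scales; grey points are all 11048 pairs and the line marks equal fold. The granzyme and Prf1 pairs (orange) and Fasl pairs (green) lie on both sides of the line, with a median ratio of 1.01.

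There were 10 BATF control sites of these genes that had no RA peak within 5 kb, and the power of the smaller RA pool to show them differed by site. In 4 (Fasl at 6233 bp, Gzma and Gzmk at 33940 bp, Gzmb and Gzmc at 13338 bp, Klrk1 and Klrd1 at 1302 bp) the number of fragments needed was below the lower bound of what the control level gives, so an equal level would be expected to pass. The same held for 26.4% of all such BATF control peaks. In 3 an equal level would be expected to fall short, and 3 lay between, against 565 and 2942 of all 4764 such peaks. The bound covers counting error of the control pool only, and the count drawn in the RA pool would vary too. At the Fasl site the margin was small, with 12 fragments needed against a bound of 12.6.

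Grouped by the strength of the control peak, 11 of the 25 had a -log10 p under 10, and 5 of these had an RA peak within 5 kb (45.5%, 21.3 to 72.0), against 48.7% of all control peaks of that strength. Of the 4 with a -log10 p from 10 to 20, 3 did (75%, 30.1 to 95.4), against 66.2% of all. Of the 10 with a -log10 p of at least 20, 7 did (70%, 39.7 to 89.2), against 92.8% of all 5118 such peaks. The 3 without one were the Gzma and Gzmk, Gzmb and Gzmc, and Klrk1 and Klrd1 sites just named. All 3 are intergenic, and among intergenic control peaks of that strength 4 of 7 at these genes (57.1%, 25.0 to 84.2) and 89.0% of all 845 had an RA peak. This grouping was made after the values had been seen and carries no test.

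**Figure D4:**
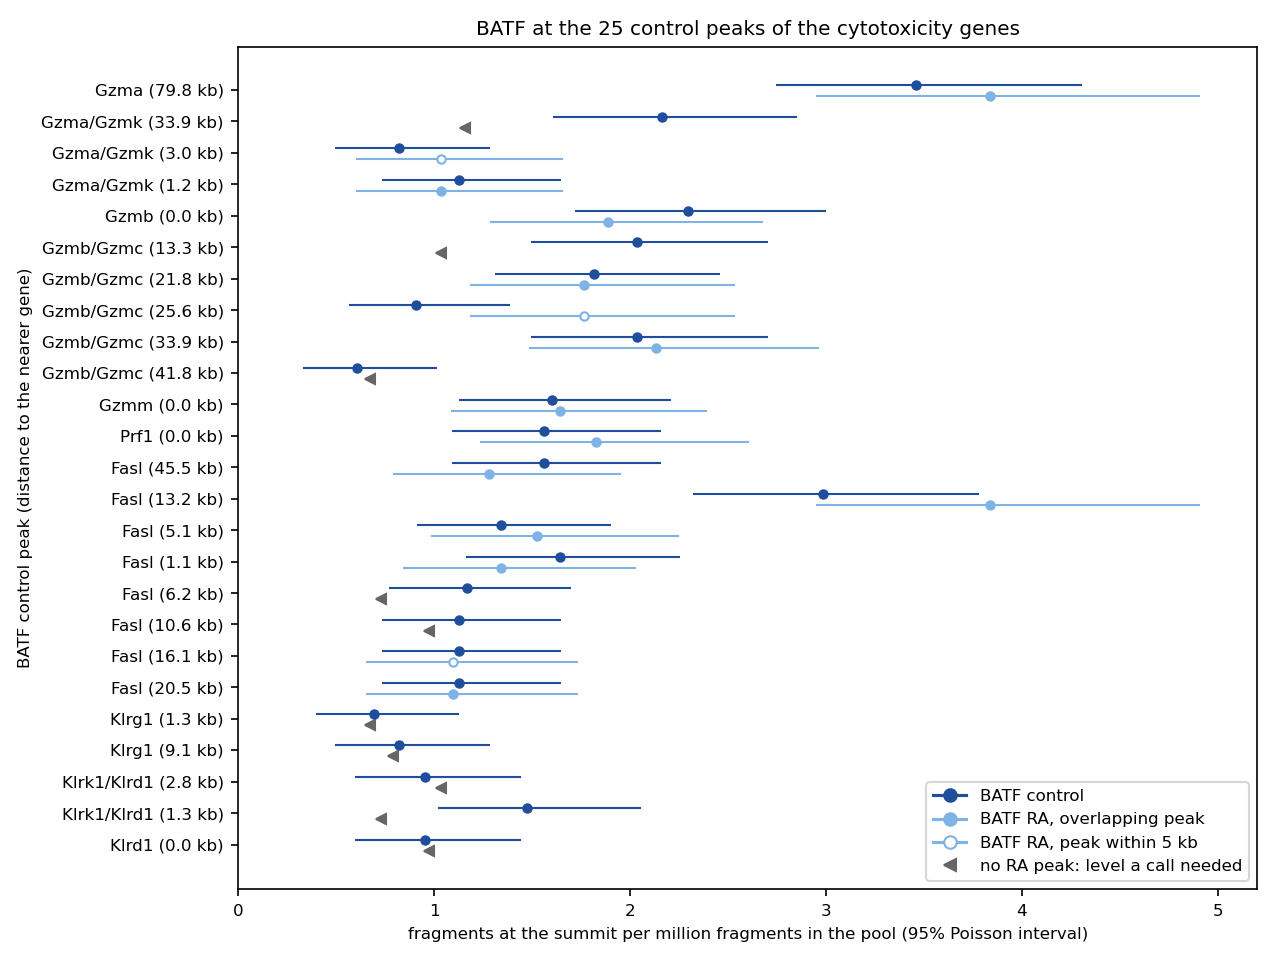
For each of the 25 BATF control peaks (y axis, gene and distance to the nearer gene in kb), dark points give FPM at the summit with 95% Poisson intervals in the control, and light points give the RA peak (open where it lies within 5 kb but does not overlap). Grey triangles mark the level a call needed with RA at the 10 sites without an RA peak; at 4 of them the triangle lies below the whole control interval.

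Both RARα control peaks of these genes overlapped a BATF control peak, as did 53.4% of all RARα control peaks, and within 5 kb the share of all was 61.9%. Neither had a RARα RA peak within 5 kb, which 10.2% of all RARα control peaks did. Among the 25 BATF control peaks, 3 (12%, 4.17 to 30.0) had a RARα control peak within 5 kb, against 7.16% of all. None of the 12 BATF RA peaks had a RARα RA peak within 5 kb, against 1.22% of all BATF RA peaks. All 4 lists share the IgG library, so the IgG level of a site enters each of them.

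A list of 38 other cytotoxicity genes was read in the same way. BATF control peaks were assigned to 32 of them and BATF RA peaks to 26, against 48.6% and 38.3% of all protein-coding genes. RARα control peaks were assigned to 10 and RARα RA peaks to 3, against 7.18% and 3.19%. All 3 granzyme inhibitors on the list, Serpinb9, Serpinb9b and Serpinb6b, had a RARα control peak, but this was a shared peak of 15 fragments (fold 3.22) that overlapped Serpinb9 in the RefSeq positions, though annotated as intergenic. Among granule genes, Srgn, which encodes the proteoglycan serglycin that packs granzymes, had a RARα peak in both conditions (fold 7.06 in the control, 4.06 with RA), 16242 bp from the gene. Lamp1, a lysosomal membrane protein shown on the surface after degranulation, was assigned a RARα peak 37970 bp away that was also called in both (fold 19.2 with 152 fragments, and 7.47 with 58).

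The remaining RARα control peaks of that list were at the promoter of Casp8, the initiator caspase of the Fas pathway (11 fragments, fold 2.82), at the promoter of the adaptor Hcst, which signals for NKG2D (10 fragments, fold 2.69), at Klra1 (highest fold 3.61), and at a site shared by Slamf7 and Cd244a (15 fragments, fold 4.02). None of these was assigned a RARα RA peak. With RA, the third gene was Gzmf, through the peak it shares with Gzmb and Gzmc. The 3 highest BATF control folds on the list were 15.6 for Klra1, 14.1 for the promoter of Stx11, a syntaxin needed for granule release, and 13.4 for the Lamp1 site. The Klra1 peak is classed as intronic yet lies 271046 bp from Klra1 in the RefSeq positions, so its assignment to that gene is uncertain. The other granzyme genes Gzmd, Gzme, Gzmg and Gzmn, as well as Lamp2 and Ncr1, had no peak in any list.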

How the data were processed

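RARα and BATF ChIP-seq peak lists from mouse CD8 T cells were analysed. Per the file headers and methods, the authors used Bowtie2 for alignment and, after duplicate removal, MACS 2.2.7.1 for peaks on mm10, at a p-value cutoff of 0.001 (RARα) or 1e-05 (BATF). The nature of the 2 pooled files, replicates or runs, was not settled. The deposited pileup is a signal, the fragments at the summit, and in the BATF control list it had been scaled by 0.988 and was returned to whole fragments. The deposited fold enrichment is a ratio of ChIP pileup to local IgG level, with 1 added to each, from which the IgG level was recovered. The deposited p-value and q-value are on the -log10 scale. Headers say that q-values were not calculated, although the column holds values. The authors also assigned genes and classes to peaks.

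Recomputed Poisson p-values lay within 0.05 of the deposited -log10 p for 100% of 27449 peaks. They gave the fragments that a call needed in the other pool at the same IgG level. Ratios of fragments per 1000000 (FPM) have exact binomial (Clopper-Pearson) 95% intervals. A peak was shared within 5 kb. Gene positions came from RefSeq GRCm38.p6, to which at least 98.9% of the names per list were matched. Scripts ran in Python 3.11.15 (scipy 1.17.1, pandas 2.3.3, numpy 2.4.6; figures in matplotlib 3.10.9), and the steps were tested on simulated data. The genes and lists were chosen with earlier results of these data known; the text names all 10 genes, genes of the wider list with a RARα peak or 1 of its 3 highest BATF control folds, and genes sharing a peak with a member. M6pr, Klrc3, Cdc34, Klre1 and the genes without a peak were named after their values had been seen. Alternatives were distances, thresholds and scalings. No sequence was used here.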

Additional observations from a re-analysis of the deposited data

How the results depend on the processing

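Each of 12 results was recomputed under its alternatives, 60 values in all, of which 46 stayed near the reported value and 14 moved. Taking every peak within 10 kb of a gene, whatever its assignment, gave 15 BATF control peaks in place of 25, 6 BATF RA peaks in place of 12, 1 RARα control peak in place of 2 and 0 RARα RA peaks in place of 1. The genes with a RARα control peak then fell to 1 from 3, and those with a RARα RA peak to 0 from 2. A fold of at least 5 left 13 BATF control peaks, 1 RARα control peak and 0 RARα RA peaks. The RARα RA peak and its 2 genes were also lost, to 0, at a q-value of at most 0.05 and at a p-value of at most 1e-05. The median ratio of BATF fold, reported as 1.01, was 0.980 at overlapping pairs and 0.956 at the 7 pairs within 10 kb of a gene, 1.03 in FPM and 1.09 with no constant added, so the side of 1 on which it lies depends on the setting. No paired analysis was possible because each condition has 1 pooled list and no replicate numbers. Depth limits what the BATF RA list can show: at 3 of the 10 control sites without an RA peak an equal level would be expected to fall short, and at 3 more it lay within counting error. These counts allow for depth and not for a pull-down that differed between pools.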
